A study of Homo sapiens with 8 samples.

Results

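The nuclear genes of the respiratory chain were taken as the protein coding genes of GENCODE on the autosomes and chromosome X whose symbols begin with NDUF, SDH (SDHA to SDHD and the SDHAF genes), UQCR, COX followed by a digit, or ATP5. The rule gave 111 genes of 20098 protein coding genes, 48 of complex I, 8 of complex II, 9 of complex III, 26 of complex IV and 20 of complex V. It rests on symbols only and uses no measured value. A gene was called bound in a library when the best FLI1 peak centred within 3 kb of any of its transcription start sites (TSS) had a -log10 q of at least 3. FLI1 ChIP-Seq was performed on OCI-Ly1 (spelled OCILy1 in the labels) and VAL, established cell lines of germinal centre B cell-like (GCB) diffuse large B cell lymphoma. The cells carried no treatment, the antibody was a rabbit polyclonal against FLI1, and each line is a single tumour-derived model. There were 2 FLI1 libraries per line, named OCI-Ly1 rep1, OCI-Ly1 rep2, VAL rep1 and VAL rep2 after line and replicate, and 4 samples of input DNA, which were not analysed here. The peak lists hold no expression values, so the identity of the lines was not checked against marker genes.

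FLI1 is a transcription factor of the ETS family, whose members recognise a GGAA core in DNA. The respiratory chain is a set of protein complexes in the inner mitochondrial membrane. Complex I oxidises NADH, complex II (succinate dehydrogenase) links the citric acid cycle to the chain, complexes III and IV carry electrons on to oxygen and pump protons, and complex V makes ATP from the proton gradient. Nearly all subunits are encoded in the nucleus, as are the assembly factors that insert cofactors and join the parts. Their promoters are textbook targets of NRF1 and of GABP, an ETS factor also known as NRF2.

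The lists differed in length. OCI-Ly1 rep2 listed 1107379 peaks, of which 5354 had a -log10 q of at least 3. VAL rep2 listed 986629 peaks with 6474 passing, and VAL rep1 listed 237178 with 973 passing. As inferred from the deposited fold and p-value, the weakest passing peak held 6 reads at its summit in OCI-Ly1 rep2, 8 in VAL rep1 and 6 in VAL rep2. The median over all passing peaks was 8 reads in OCI-Ly1 rep2 and VAL rep2 and 17 in VAL rep1, and the inferred local background at the best peaks of the respiratory chain genes had a median of 0.41 reads in OCI-Ly1 rep2, 1.67 in VAL rep1 and 0.359 in VAL rep2. Totals of reads were not used, so the length of a list is not read as its depth, and OCI-Ly1 rep2 and VAL rep2 are called the longer lists. The list of OCI-Ly1 rep1 had 37 intervals, 33 of them over 1 Mb, and 0 of the 111 genes had one centred within 3 kb of a TSS. It was not used for sites, so OCI-Ly1 rests on 1 library and its values carry no replicate error. A -log10 q ranks peaks within a list and is not an amount of FLI1, and a value below 3 does not show that FLI1 was absent.

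FLI1 peaks lay at the promoters of 36 of the 111 genes in at least 1 library, and 75 genes had none that passed. The 36 genes make 32.4% of the 111 (Wilson 95% interval 24.4 to 41.6, which like all intervals here covers counting error only), against 27.5% of all protein coding genes. In OCI-Ly1 rep2, 28 genes (25.2%, interval 18.1 to 34.0) were bound, against 19.0% of all genes. VAL rep2 had 26 (23.4%, interval 16.5 to 32.1), against 20.9%, and VAL rep1 had 6, against 3.14%. Both cell lines shared 18 of the genes (16.2%, interval 10.5 to 24.2), against 12.6%, which became 4 genes (3.60%, against 2.82%) without VAL rep2 and 11 (9.91%, against 7.61%) at a threshold of 5. Of the 18 genes, 4 were bound in all 3 libraries (3.60% of the 111), against 2.74%. Each of these background values lies within the interval of the 111 genes, so at this threshold a share above the background was not shown for the 111 genes as a whole. At a -log10 q of at least 5, 29 genes were bound in any library (26.1%, interval 18.9 to 35.0, against 16.7% of all genes) and 22 in VAL rep2 (19.8%, interval 13.5 to 28.2, against 12.3%), with both backgrounds below the interval, while OCI-Ly1 rep2 had 18 (16.2%, interval 10.5 to 24.2, against 12%). The median best -log10 q, with genes without a listed peak set to 0, was 1.55 for the 111 genes and 1.22 for all genes in OCI-Ly1 rep2, and 1.71 and 1.64 in VAL rep2.

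The sequences at the sites are given first for the genes on which the results turn, with CCGGAAR (R is A or G, sought on both strands), the core of a strong ETS site, in capitals. Each is 29 bases, read 5′ to 3′ on the strand of the motif from GRCh37. The first set belongs to genes bound in all 3 libraries, and shows a cluster of 3 motifs at NDUFS3 and single motifs at SDHD and COX10.
NDUFS3, first motif, chr11:47600513-47600541, minus strand: cggacgtggagCCGGAAGcggaggttccg
NDUFS3, middle motif, chr11:47600532-47600560, plus strand: tccacgtccgcCCGGAAGaagatctgctg
NDUFS3, last motif, chr11:47600560-47600588, minus strand: aagggcacggaCCGGAAAcggaagtgtgc
SDHD, chr11:111957509-111957537, minus strand: tgctgggtgaaCCGGAAGtcgagaggcgg
COX10, chr17:13972791-13972819, plus strand: gagcccgcccgCCGGAAGtggcggcccgg
The second set comes from genes bound in OCI-Ly1 rep2 and VAL rep2, and shows how alike the core and how unlike the flanks are across complexes.
NDUFC1, chr4:140217000-140217028, plus strand: ccacctggcggCCGGAAGtgcgggactcg
NDUFA13, chr19:19627013-19627041, plus strand: tccgcccgggaCCGGAAGtgtgggatact
SDHAF2, first motif, chr11:61197507-61197535, minus strand: gaggagctgagCCGGAAGgtgcgtccctg
SDHAF2, second motif, chr11:61197565-61197593, plus strand: gctaggagttcCCGGAAGtgcccgcgcag
SDHB, chr1:17380638-17380666, minus strand: cacccgggaaaCCGGAAGccgcctcccac
UQCRH, chr1:46769313-46769341, minus strand: cggcgatctggCCGGAAGtgcggcacact
COX8A, chr11:63742063-63742091, minus strand: ggctgcgctggCCGGAAGttctggagctg

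Complex I is the largest of the complexes, and 20 of its 48 genes were bound in at least 1 library (41.7%, interval 28.8 to 55.7), and the 27.5% of all genes lies just below the interval. Without OCI-Ly1 rep2 it was 12 (25%, interval 14.9 to 38.8), against 21.1%. With the canonical TSS only or the closest TSS only, it was 16 (33.3%, interval 21.7 to 47.5). The shares of all genes, 23.7% and 23.4%, lay within that interval. At a -log10 q of at least 5 it was also 16 (33.3%), with the 16.7% of all genes below the same interval. NDUFS3, a core subunit of the arm that reduces quinone, had the strongest peak of the whole chain. Its -log10 q was 45.5 in OCI-Ly1 rep2, 20.5 in VAL rep1 and 55.0 in VAL rep2. The fold enrichments over the local background were 20.8, 9.36 and 26.7, from 41, 35 and 40 reads. All 3 values were far inside the threshold, and NDUFS3 ranked 56, 44 and 42 among all protein coding genes by -log10 q. The summits lay 20 bp before, 1 bp after and 18 bp before a TSS of NDUFS3 (chr11:47586888-47606114, plus strand). The 3 motifs printed above fall 54, 35 and 7 bp before the nearest TSS. The summits of OCI-Ly1 rep2 and VAL rep2 lay between the middle and last motifs. That of VAL rep1 lay past the last motif, 8 bp from it. The opposite gene KBTBD4 starts within 3 kb of the same peak.

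NDUFA4, first assigned to complex I and now held to be a subunit of complex IV, was the second strongest in VAL rep2. Its -log10 q was 12 in OCI-Ly1 rep2, 5.88 in VAL rep1 and 41.7 in VAL rep2. The gene was bound in every library, with 13, 12 and 28 reads. Unlike NDUFS3, its summits lay 474, 512 and 494 bp before the nearest TSS of the gene (chr7:10971570-10979780, minus strand), closer to an unnamed lncRNA, 204 to 242 bp away. None of the 3 summits had CCGGAAR within 50 bp. The closest match to the shorter ETS core was 1 GGAA, 10 to 48 bp from the summits, shown here in capitals with its flanks.
NDUFA4, chr7:10980289-10980316, minus strand: cagcgtaacacaGGAAgcagctgcagtc

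NDUFC1, NDUFB9 and NDUFA13, accessory subunits of complex I, were strong in the longer list of each line and did not pass in VAL rep1. NDUFC1 had a -log10 q of 21.4 in OCI-Ly1 rep2 and 28.5 in VAL rep2, and no peak was listed in VAL rep1. NDUFB9 had 38.5 and 20.3, with 2.99 in VAL rep1, just below the threshold. NDUFA13 had 18.4 and 25.5, with 2.83 in VAL rep1. The NDUFB9 summit of VAL rep1 held 27 reads, more than the 22 of VAL rep2, over an inferred local background of 8.03 reads, so read number alone did not set the call.

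Other core subunits of complex I were bound in 1 line only. NDUFS1, which carries iron-sulfur clusters, had a -log10 q of 5.10 in OCI-Ly1 rep2, 0.04 in VAL rep1 and 1.63 in VAL rep2. NDUFS7 had 2.97, 0.78 and 6.59, just short of the threshold in OCI-Ly1. NDUFV2, a flavoprotein arm subunit, had 0.92, 0.12 and 5.18. NDUFS8 and NDUFV1 did not pass in any library, with highest values of 1.60 and 2.70. In all, 5 of 7 core subunits of complex I (71.4%, interval 35.9 to 91.8) were bound in at least 1 library, against 27.5% of all genes. They include NDUFV2, whose summit lay in repeated sequence, as given below. Of the accessory subunits 9 of 30 were bound (30.0%, interval 16.7 to 47.9), and of the assembly factors 5 of 8 (62.5%, interval 30.6 to 86.3). The 27.5% lies within the interval of the accessory subunits only. No interval is given for the core subunits without NDUFV2, so a share above the background is not shown without that call. In both lines, 1 of 7 core subunits was bound (14.3%, interval 2.57 to 51.3), and the 12.6% of all genes lies within the interval. It also lies within that of the accessory subunits (3 of 30, interval 3.46 to 25.6). It lies just below that of the assembly factors (3 of 8, 37.5%, interval 13.7 to 69.4). Among the assembly factors, NDUFAF4, NDUFAF7 and NDUFAF8 were bound in both lines, NDUFAF3 in OCI-Ly1 rep2 and NDUFAF6 in VAL rep2. For NDUFAF3, NDUFAF6 and NDUFAF7 another gene was closer to the summit in each library in which they were bound. These genes were DALRD3, CCNE2 and CEBPZ. NDUFAF7, an arginine methyltransferase, had a -log10 q of 4.02 in OCI-Ly1 rep2, 1.02 in VAL rep1 and 11.3 in VAL rep2.

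**Figure D1:**
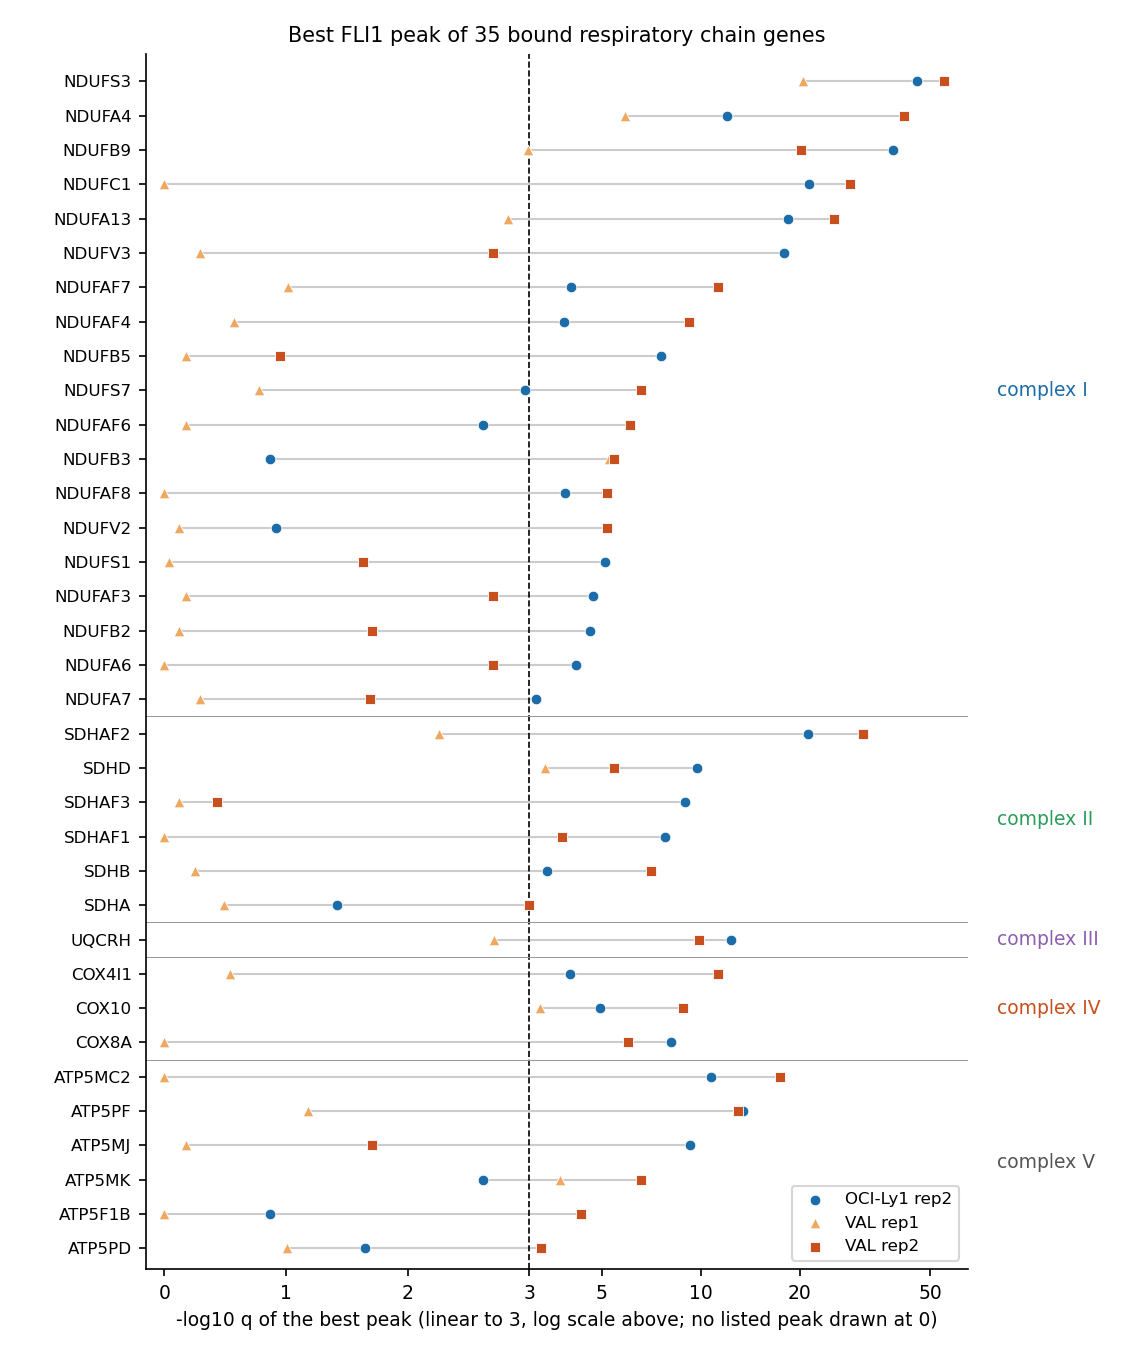
The -log10 q of the best FLI1 peak (x axis, linear up to 3 and logarithmic above) is plotted for 35 of the 36 bound genes, ordered by complex and by their highest value, with 1 point per library and a dashed line at the threshold of 3. NDUFS3 sits at the far right in all 3 libraries, while most triangles of VAL rep1 lie left of the threshold.

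Complex II had the highest share, with 6 of 8 genes bound in at least 1 library (75%, interval 40.9 to 92.9), an interval that lies above the 27.5% of all genes but rests on 8 genes. SDHD, a membrane anchor that holds haem and quinone, was bound in every library, with a -log10 q of 9.73 in OCI-Ly1 rep2, 3.36 in VAL rep1 and 5.46 in VAL rep2. Its summits lay 23, 49 and 45 bp before the TSS (chr11:111957548-111990739, plus strand), and in each library the TSS of TIMM8B, a mitochondrial import chaperone gene, was closer. SDHB, the iron-sulfur subunit, had 3.40, 0.25 and 7.04. SDHC, the other anchor, did not pass in any library, with 1.37, 0.00 and 0.95.

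SDHA, the flavoprotein that oxidises succinate, passed in VAL rep2 alone, at 3.0 with 6 reads, the lowest passing value of any of the genes. Its summit lay inside the gene, 165 bp before an internal TSS, and the 29 bases there occur in 26684 places of GRCh37. The same was seen for NDUFV2, whose summit in VAL rep2, inside the gene and 2100 bp before an internal TSS, lay in 29 bases found in 4194 places. Of the 60 summits of bound genes, 57 had 29 bases found in 1 place, and the remaining one, NDUFB3 in VAL rep2, in 2. The part of repeated sequence in these calls was not tested. Without these calls, made an alternative after the values were seen, 34 of the 111 genes (30.6%), 19 of 48 in complex I (39.6%) and 5 of 8 in complex II (62.5%) were bound. The share of all genes was not recomputed in this way, so these values have no background.

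The assembly factors of complex II were bound as often as its subunits, 3 of 4 each. SDHAF2, which helps to attach the flavin to SDHA, had a -log10 q of 21.2 in OCI-Ly1 rep2, 2.26 in VAL rep1 and 31.3 in VAL rep2. Its summits in the longer lists lay 24 and 26 bp before a TSS, between the 2 motifs printed above. SDHAF1 and SDHAF3 help SDHB to obtain its iron-sulfur clusters. SDHAF1 had 7.78 and 3.79 in OCI-Ly1 rep2 and VAL rep2 and no listed peak in VAL rep1. SDHAF3 had 8.93, 0.12 and 0.43, so it was bound in OCI-Ly1 only. SDHAF4 was not bound.

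Among the genes taken by symbol, complexes III and IV had the lowest shares. The symbols leave out CYC1, a complex III subunit bound in VAL rep2 at 3.27, and assembly factors with other symbols. In complex III, 1 of 9 genes was bound (11.1%, interval 1.99 to 43.5). It was UQCRH, the hinge protein that contacts cytochrome c, with a -log10 q of 12.4 in OCI-Ly1 rep2, 2.71 in VAL rep1 and 9.85 in VAL rep2. LRRC41 starts within 3 kb of the same peak, and when a peak counted only for the gene closest to its centre, 0 of 9 genes of complex III were bound. The core genes UQCRC1, UQCRC2 and UQCRFS1 (the Rieske iron-sulfur protein) did not pass, with highest values of 2.27, 1.51 and 1.71, and UQCR11 reached 2.70 in VAL rep2.

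In complex IV, 3 of 26 genes were bound (11.5%, interval 4.0 to 29), and all 3 were bound in both lines. Both the 27.5% of all genes bound in any library and the 12.6% bound in both lines lie within this interval. They lie within that of complex III too. COX10, the farnesyltransferase that makes haem O from protohaem on the way to haem A, was bound in every library, with a -log10 q of 4.92 in OCI-Ly1 rep2, 3.24 in VAL rep1 and 8.80 in VAL rep2. Its summits lay 2 bp after, 30 bp before and 1 bp before a TSS (chr17:13972807-14135053, plus strand), at a motif that spans the first base of the gene, and the divergent lncRNA COX10-DT starts 0 to 12 bp from them. The subunit COX4I1 had 3.99, 0.54 and 11.3. COX8A, a small membrane subunit, had 8.10 and 6.02 in the longer lists and no listed peak in VAL rep1. COX5A and COX5B had highest values of 1.71 each, and 1 of 9 assembly factors with a COX symbol was bound, COX10 itself. Complex IV assembly factors with other symbols were not counted here. Of those in the list of other pathway genes, COA1, COA5, SCO1, SURF1 and HIGD2A were bound in both lines. COA4, COA6, COA8 and PET100 were bound in OCI-Ly1 rep2 only, and SCO2 and PET117 in VAL rep2 only. COA3, COA7, CMC1, CMC2 and HIGD1A were bound in neither line. The low share of complex IV therefore holds for the genes taken by symbol only. The 6 tissue restricted isoforms of complex IV (COX4I2, COX6A2, COX6B2, COX7A1, COX7B2 and COX8C) did not pass, and COX7A1 had the highest value, 2.50 in OCI-Ly1 rep2. Together with UQCRHL and ATP5MGL, 0 of 8 tissue restricted isoforms were bound, which with 8 genes allows a share of up to 32.4% by the Wilson interval. NDUFA4L2, the isoform partner of NDUFA4, reached 2.43.

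In complex V, 6 of 20 genes were bound (30.0%, interval 14.5 to 51.9), close to the 27.5% of all genes. The bound genes were 5 of 12 that encode the membrane part and stalk and 1 of 5 that encode the catalytic head. ATP5PF, the coupling factor of the stalk, had a -log10 q of 13.5 in OCI-Ly1 rep2, 1.18 in VAL rep1 and 12.99 in VAL rep2. ATP5MC2, one of the genes for the rotating c ring, had 10.8, 0.00 and 17.5. ATP5MK had 2.62, 3.72 and 6.59, bound in both VAL libraries and not in OCI-Ly1 rep2. ATP5F1B, the catalytic beta subunit, had 0.87 in OCI-Ly1 rep2, no listed peak in VAL rep1 and 4.33 in VAL rep2. ATP5F1A, ATP5F1C, ATP5F1D and ATP5F1E did not pass, and ATP5F1E came nearest with 2.87 in OCI-Ly1 rep2.

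**Figure D2:**
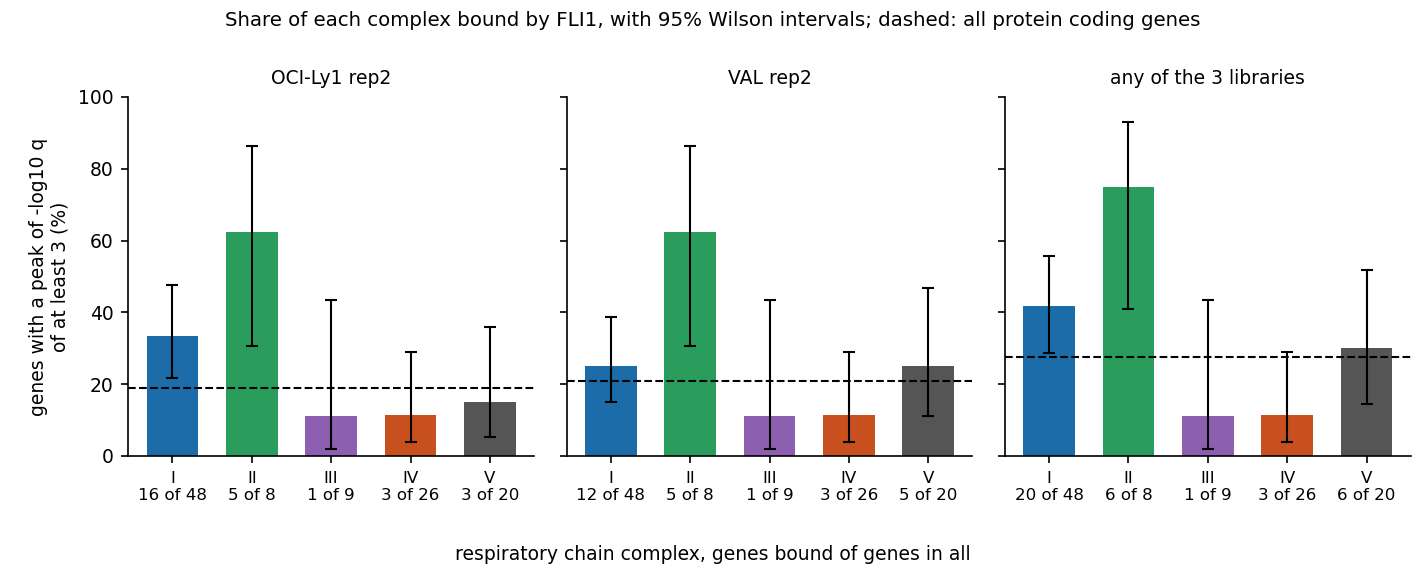
The percentage of genes of each complex with a passing FLI1 peak is drawn as bars with 95% Wilson intervals for OCI-Ly1 rep2, VAL rep2 and any of the 3 libraries, and the dashed line is the share of all protein coding genes (19.0%, 20.9% and 27.5%). Among the genes taken by symbol, complex II stands highest and complexes III and IV lowest in each panel.

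The order of the complexes was alike in the longer lists. Complex I had 16 bound genes in OCI-Ly1 rep2 and 12 in VAL rep2, complex II had 5 in each, complex III 1 in each, complex IV 3 in each and complex V 3 and 5. The interval of complex II in at least 1 library, 40.9 to 92.9%, lay above that of complex IV, 4.0 to 29%, and the intervals of all other pairs of complexes overlapped. No test was made of these differences, since genes are not replicates. They narrowed at a -log10 q of at least 2, where 38.5% of complex IV, 33.3% of complex III, 60.4% of complex I and 75% of complex II passed, against 43.4% of all genes. With NDUFA4 and NDUFA4L2 counted in complex IV, the shares changed by less than these intervals.

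Of the genes, 14 (12.6%) were bound in OCI-Ly1 rep2 and VAL rep2 but not in VAL rep1, against 9.82% of all genes. A further 10 (9.01%) were bound in OCI-Ly1 rep2 only, against 6.37%, 6 (5.41%) in VAL rep2 only, against 8.15%, and 2 (1.80%) in both VAL libraries only, against 0.199%. The strongest genes of 1 library only were NDUFV3, ATP5MJ and SDHAF3, all in OCI-Ly1 rep2. NDUFV3, an accessory flavoprotein subunit, had a -log10 q of 18.0 in OCI-Ly1 rep2 from 18 reads, 0.29 in VAL rep1 and 2.70 in VAL rep2, which is close to the threshold. The OCI-Ly1 rep2 summit lay 526 bp before the nearest TSS of NDUFV3, and the TSS of WDR4 was closer, at 157 bp. ATP5MJ, a small membrane subunit of complex V, had 9.30, 0.18 and 1.71. With 1 usable OCI-Ly1 library, a difference between lines and a difference between libraries cannot be told apart.

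**Figure D3:**
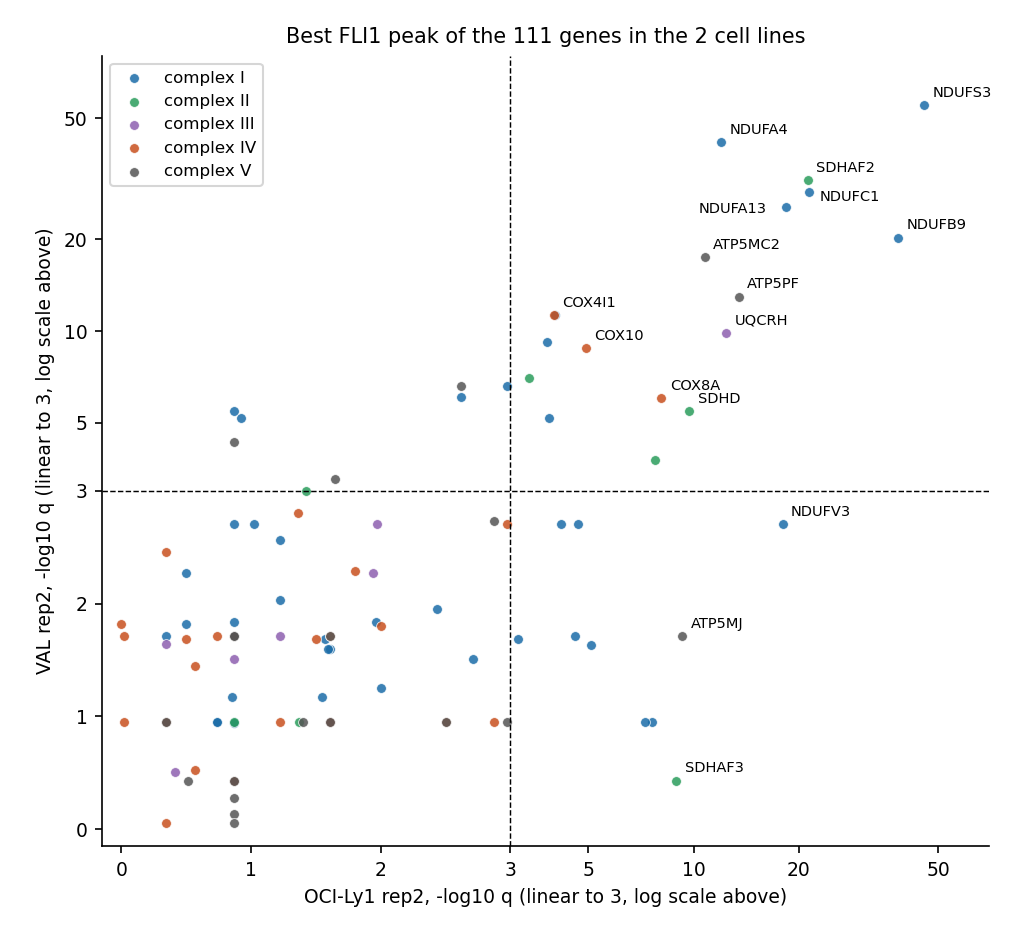
Each of the 111 genes is a point with its best -log10 q in OCI-Ly1 rep2 (x axis) and in VAL rep2 (y axis), both linear up to 3 and logarithmic above, coloured by complex, with dashed lines at 3. The 18 genes bound in both libraries fill the upper right, where NDUFS3 is the farthest point, and NDUFV3, ATP5MJ and SDHAF3 lie at the lower right.

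The genes nearest the threshold had 6 to 8 reads at the summit in OCI-Ly1 rep2 and 6 or 7 in VAL rep2. In VAL rep1 they had 12 to 27. In OCI-Ly1 rep2 the lowest passing genes were NDUFA7 (3.15), SDHB (3.40) and NDUFAF4 (3.82), and ATP5MF, NDUFS7 and COX7C lay just outside at 2.97 each. In VAL rep1 COX10 (3.24), SDHD (3.36) and ATP5MK (3.72) were just inside, and NDUFB9 (2.99), NDUFA13 (2.83) and UQCRH (2.71) just outside. In VAL rep2 SDHA (3.0), ATP5PD (3.27) and SDHAF1 (3.79) were just inside, and COX20 (2.80), ATP5F1E (2.73) and UQCR11 (2.70) just outside. Bound genes had a median of 11.5 reads at the summit in OCI-Ly1 rep2, 14 in VAL rep1 and 11 in VAL rep2.

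The passing summits sat close to start sites. The median distance from the summit to the nearest TSS of the gene was 36.5 bp in OCI-Ly1 rep2 and 48.0 bp in VAL rep2, against 71.0 and 84.0 bp over all bound genes. A summit lay within 500 bp of a TSS for 92.9% and 92.3% of the bound genes, against 82.1% and 80.2%. Within 100 bp the shares were 60.7% and 69.2%, against 58.1% and 53.4%, so in OCI-Ly1 rep2 they were nearly alike. No interval or test was made for these distances. For the 18 genes bound in OCI-Ly1 rep2 and VAL rep2, the summits of the lines were a median of 22.5 bp apart and at most 52 bp apart, and 17 of 18 (94.4%) lay within 50 bp of each other, against 67.2% of all 2524 genes bound in both libraries. For NDUFS3 the distance was 2 bp and for COX10 3 bp.

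Other genes started near many of these peaks. Of the 36 bound genes, 19 had the TSS of another protein coding gene within 3 kb of the peak, and for 9 of the 36 another gene was closer to the summit in each library in which the gene was bound. No such counts over all bound genes are given, so these are not read as a trait of the respiratory chain. ATP5PF shares its peak with GABPA, the DNA-binding subunit of GABP, and so the peak values of GABPA are those of ATP5PF. NDUFS1 shares its peak with the elongation factor gene EEF1B2, NDUFAF7 with CEBPZ, NDUFB5 with the mitochondrial ribosomal gene MRPL47 and NDUFA7 with the ribosomal gene RPS28. The NDUFAF3 peak of OCI-Ly1 rep2, with a -log10 q of 4.69, lay 1825 bp before the gene and closer to DALRD3. Which gene of a pair responds to FLI1 cannot be read from peaks.

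CCGGAAR lay within 50 bp of the summit in 19 of 28 bound genes in OCI-Ly1 rep2 (67.9%, interval 49.3 to 82.1), and in 2 of 28 windows 250 bp away (7.14%). In VAL rep2 it was found in 15 of 26 (57.7%, interval 38.9 to 74.5) and in 0 of 26 windows away, which allows up to 12.9%. Over all bound genes the shares at the summit were 52.2% and 45.8%. Best peaks of respiratory chain genes that did not pass had it in 14.6% and 10.6%, against 6.03% and 5.63% of such peaks over all genes. Over the 3 libraries, 23 of the 36 bound genes had the motif at a summit, with 28 matches, 13 on the coding strand and 15 on the other, and 20 of the 28 lay within 100 bp of a TSS. NDUFS3, NDUFAF3 and SDHAF2 had more than 1 match.

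**Figure D4:**
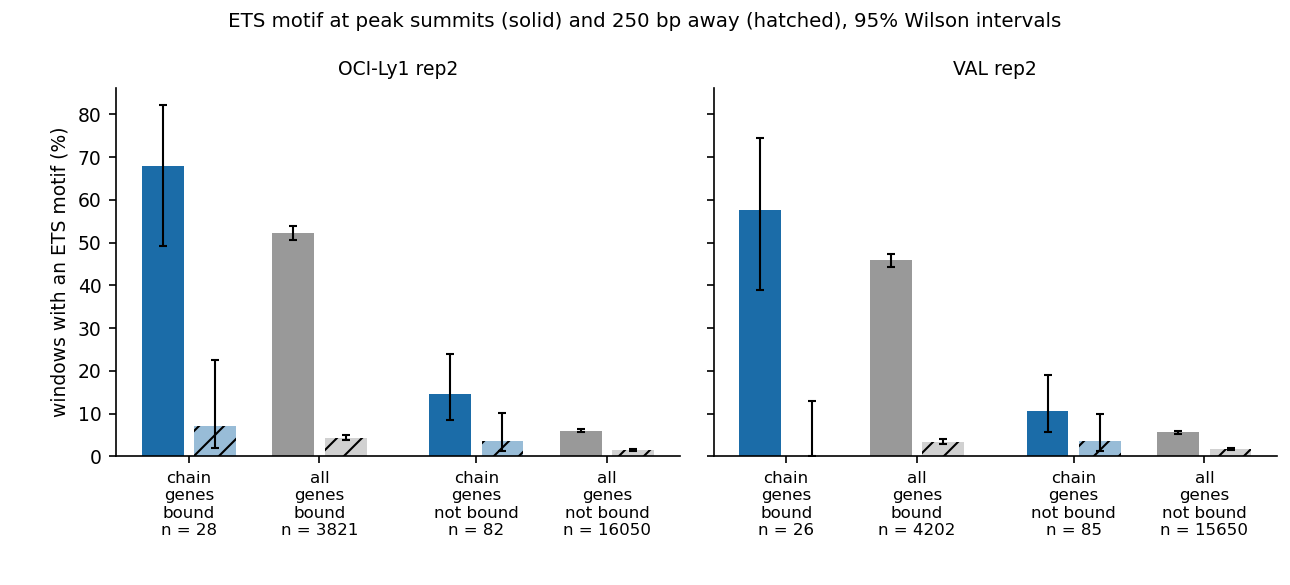
Bars give the percentage of windows, 50 bp to each side, with CCGGAAR, an ETS motif, at the peak summit (solid) and 250 bp away (hatched) with 95% Wilson intervals, for respiratory chain genes (blue) and all protein coding genes (grey), bound or listed but not bound, in OCI-Ly1 rep2 and VAL rep2. The solid bars of bound respiratory chain genes reach 67.9% and 57.7%, and the hatched bars stay at 7.14% and 0%.

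The 3 bound genes of complex V in OCI-Ly1 rep2 had no CCGGAAR at the summit. ATP5PF had it in VAL rep2, where the summit was 30 bp from that of OCI-Ly1 rep2. ATP5MC2 had neither CCGGAAR nor a GGAA on either strand within 50 bp of the summit in either library, at a -log10 q of 10.8 and 17.5. SDHAF1 had no CCGGAAR, but a GGAA preceded by GC and followed by GT, 10 bp from the OCI-Ly1 summit and 32 bp from that of VAL rep2.
SDHAF1, chr19:36486068-36486095, plus strand: gaagcgctgggcGGAAgtggctgtggct
A GGAA with any flanks was found at 92.9% and 88.5% of bound summits in the longer lists. No share for GGAA in windows away from summits or over all bound genes is given. An excess of GGAA at the summits is therefore not shown.

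The promoters, taken from 250 bp before to 50 bp after the canonical TSS, held CCGGAAG or CCGGAAA in 40 of the 111 genes (36%, interval 27.7 to 45.3), against 18.0% of all protein coding genes. The NRF1 motif CGCATGCG was found in 11.7% (2.83% of all promoters) and the YY1 motif AAGATGGCG in 10.8% (2.83% of all). GGGCGG, bound by SP1, was found in 61.3% (61.0%) and CCAAT, bound by NF-Y, in 31.5% (35.9%). The YY1 motif lay in 8 of the 36 bound genes (22.2%) and 4 of the 75 others (5.33%), against 4.15% and 2.33% over all genes. The NRF1 motif lay in 3 of the 36 (8.33%) and 10 of the 75 (13.3%), against 3.93% and 2.42%.

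The share of promoters with the motif that were bound ranged widely among the complexes, which was not tested. Of the promoters with the ETS motif, 20 of 40 were bound in at least 1 library (50%), against 61.3% of such promoters over all genes, and of those without it 16 of 71 (22.5%), against 20%. In complex I, 9 of 13 genes with the motif were bound, and in complex II 4 of 4. In complex III it was 1 of 4 and in complex IV 3 of 11, although 42.3% of complex IV promoters held the motif against 27.1% in complex I. The 8 genes of complex IV with the motif and no passing peak were COX15, COX17, COX5B, COX6A1, COX6B1, COX7A2, COX7B and COX7C. Of genes without the motif, 11 of 35 were bound in complex I, 0 of 5 in complex III and 0 of 15 in complex IV. None of the 8 tissue restricted isoforms had the motif, and their promoters had a median of 9.5 CpG dinucleotides against 23 for the 111 genes.

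**Figure D5:**
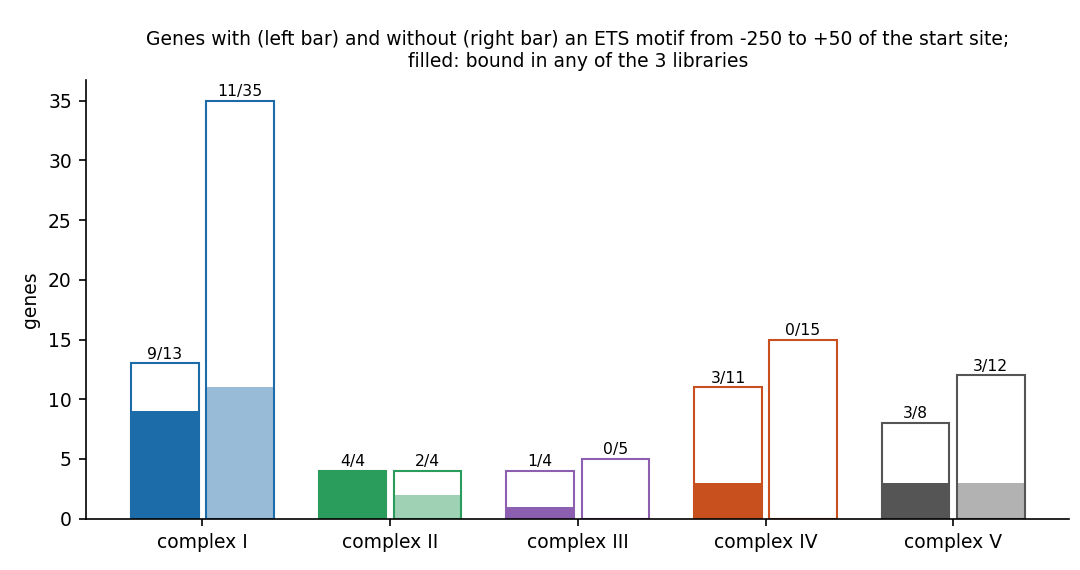
For each complex the left bar counts the genes whose promoter holds CCGGAAG or CCGGAAA, an ETS motif, and the right bar those without it, with the genes bound in any of the 3 libraries filled and printed as bound/all. In complex IV 3 of 11 promoters with the motif are filled, against 9 of 13 in complex I.

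Other genes of the pathway, from a list that includes the remaining assembly factors, CYC1 and CYCS, were bound in 22 of 42 cases (52.4%, interval 37.7 to 66.6), against 27.5% of all genes. UQCC4, UQCC6, COA1, COA5 and FMC1 were bound in all 3 libraries. COA1, a factor of complex IV and complex I assembly, had a -log10 q of 36.6 in OCI-Ly1 rep2, 12 in VAL rep1 and 19.2 in VAL rep2. Of 15 regulators of mitochondrial genes, 7 were bound (46.7%, interval 24.8 to 69.9), an interval that includes the 27.5%. GABPB1, the partner of GABPA, had 17.0, 1.05 and 7.90, NRF1 had 4.45, 2.17 and 3.87, and TFB1M, a methyltransferase of mitochondrial ribosomal RNA, had 18.1, 1.22 and 7.90. TFAM, which packs mitochondrial DNA and helps start its transcription, had 10.8 and 7.95 in the longer lists and no listed peak in VAL rep1. YY1, ESRRA and PPARGC1A did not pass in any library, with highest values of 1.82, 1.82 and 1.02.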

How the data were processed

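FLI1 ChIP-Seq of OCI-Ly1 and VAL was used as deposited peak lists, 1 per library and not pooled. According to the methods of the study, reads were mapped to GRCh37 with bowtie2 and filtered with SAMtools for unique position, a mapping quality of at least 10 and duplicates, whereas the submitters' processing notes name BWA and CASAVA 1.4. The methods give HOMER at an FDR of 0.001, and the deposited lists follow the MACS2 layout, so their caller, control and settings are not given in the sources used here. The authors' caller wrote the fold, a ratio of summit pileup to local background, and the -log10 of the p-value and of the q-value.

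Start sites came from GENCODE release 44 lifted to GRCh37, and each gene took its peak of highest -log10 q centred within 3 kb of any TSS (ties by fold). Reads at summits were solved for from each pair of fold and p, taking the fold as (reads + 1)/(background + 1) and p as a Poisson tail. Totals of reads were not used, so depth is known only through these counts. Motifs were sought on both strands within 50 bp of summits, in windows 250 bp away and in promoters. Complexes were compared by counts with Wilson 95% intervals, without a test, since OCI-Ly1 has 1 usable library and genes are not replicates. The list rules for named genes were the members bound in all libraries, the 3 highest of each complex by the lower of the OCI-Ly1 rep2 and VAL rep2 values, core subunits, tissue restricted isoforms, genes nearest the threshold and the 3 strongest of a single library. The other genes named were chosen after their values were seen. The genes and lists were chosen with earlier results of these data known. Alternatives changed the threshold, fold, window, TSS set, gene assignment, motif and libraries. Scripts were tested on simulated data. Sequences of chromosome 8 were left out, and 1 bound gene and 2 summit sequences are not reported here. Versions were pysam 0.24.0, scipy 1.17.1, pandas 2.3.3, numpy 2.4.6, matplotlib 3.10.9 and Python 3.11.15.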

Additional observations from a re-analysis of the deposited data

How the results depend on the processing

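Of 110 planned recomputed percentages, 92 stayed within the Wilson interval of the reported value. At a threshold of 2 the bound share was 36.9% in OCI-Ly1 rep2 and in VAL rep2 (29.5% and 33.4% of all genes), 51.4% in any library, 60.4% in complex I and 38.5% in complex IV (43.4% of all genes). At 5 it was 16.2% in OCI-Ly1 rep2 (12%) and 9.91% in both lines (7.61%). When a peak counted only for the gene with the closest TSS, the shares were 17.1% in OCI-Ly1 rep2, 16.2% in VAL rep2 and 9.91% in both lines (15.4%, 17.0% and 9.33% of all genes) and 0% in complex III, where the centre of the UQCRH peak was closer to another gene. The motif CCGGAAGT gave 35.7% and 34.6% of bound summits in OCI-Ly1 rep2 and VAL rep2, and GGAA 92.9% and 88.5%, each without a background share. With each library left out in turn, the share ranged from 23.4% to 32.4% in any library, from 3.60% to 16.2% in both lines, from 25% to 41.7% in complex I, from 62.5% to 75% in complex II and from 20% to 30.0% in complex V, and was 11.1% in complex III and 11.5% in complex IV throughout. The lowest values came without OCI-Ly1 rep2 (23.4% and 25%) and, for both lines, without VAL rep2 (3.60%). Both lines without OCI-Ly1 rep2 can give no value. The causes were not tested. The alternative without summits in repeated sequence, added after the values were seen, kept all 10 percentages within their intervals. No paired analysis was possible because no test was made and OCI-Ly1 has 1 usable library. A site needed 6 reads or more to pass in the longer lists and 8 in VAL rep1, which limits what could be called.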
